A study of Mus musculus with 36 samples.

Results

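Collagen chain genes were followed in epididymal white fat of mice fed a high-fat diet without limit or in restricted amounts. The members were all genes with a non-control array probe whose file name has the form Col, a number, a, a number, which gave 81 probes of 40 genes among the 27591 genes on the array. Each gene was read from the probe with the highest mean intensity. There were 11 fibrillar chains, 8 basement membrane chains and 21 others. Of the 40 genes, 30 passed the signal filter (signal well above background on at least 9 of the 12 arrays of at least 1 group), as did 16489 genes of the whole array. The chains Col10a1, Col11a1, Col19a1, Col22a1, Col25a1, Col27a1, Col28a1, Col4a3, Col9a1 and Col9a3 did not pass and were not tested.

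Collagens are trimers of chains wound into a triple helix. Fibrillar collagens are secreted as procollagens, trimmed by proteases and crosslinked into the fibres that carry tension, while type IV chains form the sheet-like network of the basement membrane around each adipocyte and blood vessel. In fat tissue, type VI collagen forms a filament mesh around adipocytes, and most collagen genes are transcribed by fibroblasts and adipocyte progenitors.

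The arrays came from 36 adult male C57BL/6J mice, all fed a purified diet with 30 energy% fat. All had free access to the diet for 3 weeks of adaptation, after which 12 mice (t0) were killed. Of the rest, 12 (HF-AL) stayed on free access for 12 more weeks and 12 (HF-DR) received the diet in restricted amounts for those 12 weeks (70 en% in the labels, which do not say whether this is the amount given or withheld), with vitamins and minerals supplemented to match intake. RNA of each mouse was labelled with Cy5 and hybridised with a Cy3 pool of all samples, so that each value is the log2 ratio of 1 animal to that pool. The groups t0 and HF-DR differ in age and time on the diet as well as in feeding.

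Between 44.6% and 86.3% of probes were above background per array, the lowest on HF-DR 5 (the number is the replicate number of the labels). No collagen probe used here was counted as saturated in Cy5 on any array, and saturation in Cy3 was not counted. Adipocyte, fibroblast, endothelial and mesothelial markers were above background on all 36 arrays. Several arrays stood apart. The seminal vesicle gene Svs4 had log2 ratios of 6.29 and 6.00 on HF-DR 8 and 9 and 0.81 on HF-DR 7, against -2.91 or less on the other 33 arrays. The keratin Krt18 read 0.95, 2.08 and 1.97 on HF-AL 5, 7 and 9 and 1.06, 3.59 and 3.04 on HF-DR 7, 8 and 9, against -0.23 or less elsewhere. Values without these 6 arrays, which were chosen after their values were seen, are given where they change the call of a chain in any of the 3 comparisons.

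Restricted feeding was compared with free access over the same 12 weeks first. Most collagen transcripts were lower in HF-DR, and Col3a1, Col1a1, Col18a1 and Col1a2 were 4.29-fold lower, 4.15-fold lower, 3.6-fold lower and 3.54-fold lower than in HF-AL. Of the 30 chains tested, 23 were lower and 4 higher at an adjusted p under 0.05 (limma, Benjamini-Hochberg over 16489 genes), against 35.9% of all genes lower and 28.9% higher. Among all genes tested, 2.60% were at least 2-fold lower, and 14 of the 30 chains were. The group ranges did not overlap, with HF-DR below HF-AL, for 14 chains and for 8.19% of all genes. The median difference of the 30 chains was -0.76, and that of all genes tested was -0.04. Within the 3 slides that held an array of both groups, the median difference was -0.77, -0.75 and -0.86, with 22, 24 and 26 of the 30 chains below 0. Without the 6 arrays that stood apart, 23 chains were lower and 5 higher, and with the slide as a block 20 were lower and 2 higher.

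By class, 8 of 9 fibrillar chains were lower, with a median difference of -1.59. All 7 basement membrane chains were lower, with a median of -0.69. Of the 14 other chains, 8 were lower and 4 higher, with a median of -0.42. Among all genes 35.9% were lower and 28.9% higher, so the share of higher chains in this last class was near that of all genes. In a bulk tissue, fewer cells of a type and less RNA per cell cannot be told apart.

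**Figure D1:**
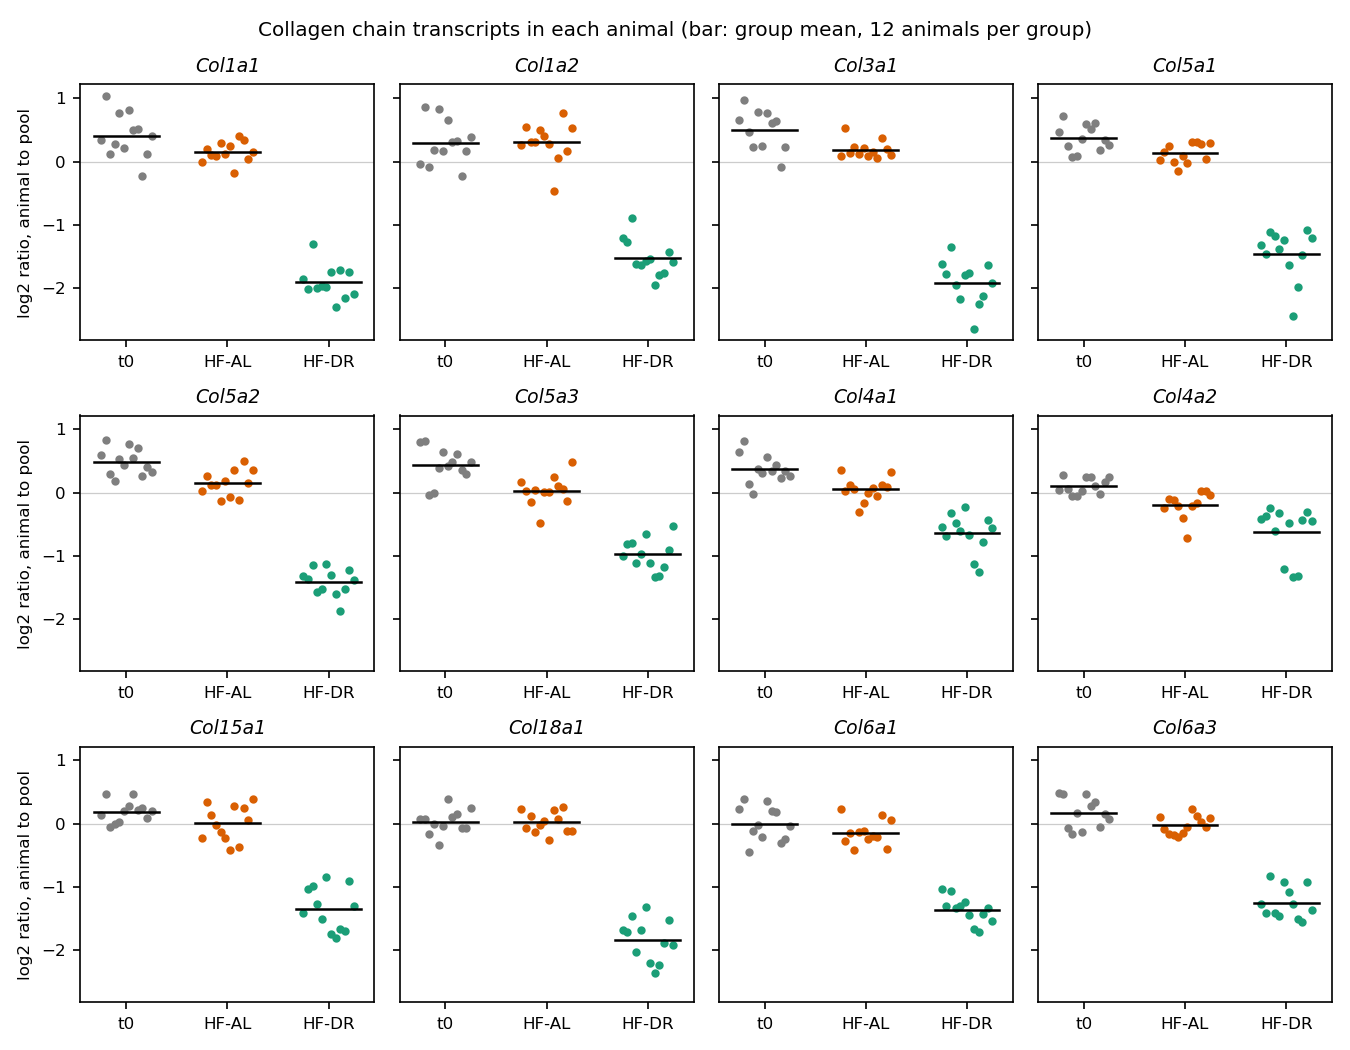
Log2 ratio of each animal to the pool (vertical axis) for 12 collagen chains in the groups t0, HF-AL and HF-DR, with a point per animal and a bar at the group mean. In HF-DR the points of Col1a1, Col1a2, Col3a1, the type V chains, Col15a1, Col18a1, Col6a1 and Col6a3 lay below every HF-AL point, while those of Col4a1 and Col4a2 overlapped HF-AL.

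Type I collagen, the main fibre of connective tissue, is built from Col1a1 and Col1a2. The lowest, median and highest log2 ratios of Col1a1 (probe at chr11:94767851-94767910 on mm8) were -0.22, 0.37 and 1.03 at t0, -0.19, 0.14 and 0.40 in HF-AL and -2.29, -1.97 and -1.30 in HF-DR. All 12 HF-DR animals lay below every HF-AL and every t0 animal, and HF-DR 8 was lowest. The difference between HF-DR and HF-AL was -2.05 ± 0.11 (SE; 95% interval -2.27 to -1.84, limma adjusted p 1.73e-18). Its partner Col1a2 (probe at chr6:4490619-4490678) gave -0.22, 0.25 and 0.87 at t0, -0.46, 0.31 and 0.76 in HF-AL and -1.94, -1.58 and -0.89 in HF-DR. The ranges were again apart, and t0 and HF-AL overlapped. The difference was -1.82 ± 0.12 (limma adjusted p 3.27e-15).

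Type III collagen, a trimer of Col3a1 that forms fine fibrils alongside type I, gave the largest difference of all members. Col3a1 (probe at chr1:45293290-45293349) read -0.08, 0.61 and 0.98 at t0, 0.05, 0.14 and 0.52 in HF-AL and -2.64, -1.85 and -1.34 in HF-DR, with 11 t0 values. The highest HF-DR animal, HF-DR 3, was more than 1 log2 unit below the lowest HF-AL animal. The difference was -2.10 ± 0.11 (95% interval -2.32 to -1.88, limma adjusted p 5.29e-18).

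Type V chains sit in the core of type I fibrils and set their number and width. Col5a1 read 0.07, 0.34 and 0.72 at t0, -0.15, 0.13 and 0.30 in HF-AL and -2.44, -1.35 and -1.08 in HF-DR. Col5a2 read 0.18, 0.48 and 0.83 at t0, -0.13, 0.14 and 0.50 in HF-AL and -1.87, -1.37 and -1.12 in HF-DR. Col5a3, a chain described in fewer tissues than the other type V chains, read -0.04, 0.45 and 0.81 at t0, -0.49, 0.03 and 0.49 in HF-AL and -1.33, -0.99 and -0.52 in HF-DR. No HF-DR animal reached the HF-AL range in any of the type V chains. The differences between HF-DR and HF-AL were -1.59 ± 0.11 for Col5a1, -1.56 ± 0.08 for Col5a2 and -1.01 ± 0.10 for Col5a3 (limma adjusted p 4.59e-15, 5.29e-18 and 5.83e-11).

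The other fibrillar chains are best known from cartilage or as minor fibril components. Col2a1, the type II chain of cartilage, read -0.10, 0.31 and 0.74 at t0, -0.16, 0.02 and 0.35 in HF-AL and -2.37, -1.63 and -1.24 in HF-DR on its brightest probe, with HF-DR apart from HF-AL. That probe gave a difference of -1.72 ± 0.10 (limma adjusted p 3.67e-17), whereas another, dimmer Col2a1 probe that passed the filter gave 0.14. Of 6 cartilage markers 3 passed the filter, and Matn1 and Matn3 were not well above background on any HF-AL or HF-DR array, so the level of type II collagen in this tissue was not settled by these probes. Col24a1 was lower by a small amount (-0.37 ± 0.12, limma adjusted p 0.00891), and with the slide as a block this was no longer called (-0.16, adjusted p 0.258). Col11a2 did not pass (0.11 ± 0.06, limma adjusted p 0.12). On the scanner software's processed signals, Col11a2 was called higher in HF-DR (0.62, limma adjusted p 0.00114).

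The promoter windows (250 bases before to 50 after the annotated start, RefSeq, build GRCm38.p6) are shown for Col3a1 and Col1a2, the fibrillar chains of largest difference that have an entry in the sequence table. Capitals mark the motifs CCAAT and TATAAA on either strand, and the windows are at chr1:45311288-45311587 and chr6:4505368-4505667, both on the plus strand.
Col3a1: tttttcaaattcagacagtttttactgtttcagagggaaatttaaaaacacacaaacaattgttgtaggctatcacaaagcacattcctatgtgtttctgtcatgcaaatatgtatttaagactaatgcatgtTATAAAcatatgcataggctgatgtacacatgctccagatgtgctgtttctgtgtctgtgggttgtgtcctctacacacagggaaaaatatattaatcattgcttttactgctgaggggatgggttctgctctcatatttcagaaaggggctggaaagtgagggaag
Col1a2: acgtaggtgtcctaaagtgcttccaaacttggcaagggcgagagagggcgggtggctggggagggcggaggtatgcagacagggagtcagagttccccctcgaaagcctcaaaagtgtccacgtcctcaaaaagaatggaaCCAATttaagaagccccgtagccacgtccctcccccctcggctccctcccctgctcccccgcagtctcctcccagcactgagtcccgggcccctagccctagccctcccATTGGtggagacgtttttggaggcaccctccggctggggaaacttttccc
The table held 35 windows for 32 of the 40 members. CCAAT was found in 34.3% of the member windows and 37.4% of all 32851 windows in the table, and TATAAA in 14.3% and 13.6%. The motif GGGCGG, which can share bases with CCAAT read on the other strand, was found in 57.1% of the member windows against 35.7% of all. In the 21 windows of the 19 members lower in HF-DR than HF-AL, the shares were 33.3% for CCAAT, 4.76% for TATAAA and 66.7% for GGGCGG. A match is a description of these letters only.

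Type IV chains, the network of the basement membrane, were all less than 2-fold lower in HF-DR than HF-AL on the probes used. Another passing Col4a4 probe gave -1.43. Col4a1 and Col4a2 form the common type IV trimer, and their genes lie head to head. The windows of Col4a1 (chr8:11312777-11313076, minus strand) and Col4a2 (chr8:11312555-11312854, plus strand) are shown because they share 78 bases, in capitals, with annotated starts 21 bases apart.
Col4a1: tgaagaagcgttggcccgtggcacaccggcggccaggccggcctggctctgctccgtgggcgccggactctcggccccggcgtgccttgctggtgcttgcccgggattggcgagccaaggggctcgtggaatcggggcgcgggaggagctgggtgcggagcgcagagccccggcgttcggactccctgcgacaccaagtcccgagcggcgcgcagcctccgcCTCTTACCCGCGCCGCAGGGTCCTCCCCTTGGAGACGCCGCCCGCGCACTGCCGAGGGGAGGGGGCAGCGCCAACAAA
Col4a2: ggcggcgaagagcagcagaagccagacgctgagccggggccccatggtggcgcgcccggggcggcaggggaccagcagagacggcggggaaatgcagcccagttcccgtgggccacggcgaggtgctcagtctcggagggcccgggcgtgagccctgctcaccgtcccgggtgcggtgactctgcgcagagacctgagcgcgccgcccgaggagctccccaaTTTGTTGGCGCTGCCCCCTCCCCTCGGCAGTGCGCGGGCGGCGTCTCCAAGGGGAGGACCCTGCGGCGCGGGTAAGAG
Col4a1 read -0.02, 0.34 and 0.81 at t0, -0.30, 0.07 and 0.36 in HF-AL and -1.25, -0.58 and -0.23 in HF-DR. Col4a2 read -0.06, 0.08 and 0.28 at t0, -0.72, -0.16 and 0.03 in HF-AL and -1.33, -0.44 and -0.25 in HF-DR, with 11 HF-AL values. In both chains the HF-DR and HF-AL ranges overlapped, and HF-DR 8 and 9 were among the lowest animals. The differences were -0.69 ± 0.10 for Col4a1 (limma adjusted p 8.77e-08) and -0.43 ± 0.11 for Col4a2 (limma adjusted p 0.00125). With the slide as a block, Col4a2 was not called (-0.31, limma adjusted p 0.0719).

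The remaining type IV chains make trimers found in fewer basement membranes. Col4a4 read -0.07, 0.08 and 0.29 at t0, -0.11, 0.08 and 0.75 in HF-AL and -0.33, -0.16 and 0.19 in HF-DR. Col4a5 read -0.02, 0.13 and 0.61 at t0, -0.10, 0.24 and 0.44 in HF-AL and -0.77, -0.48 and 0.39 in HF-DR. Col4a6 read -0.35, 0.00 and 0.47 at t0, -0.13, 0.19 and 0.60 in HF-AL and -0.87, -0.69 and 0.10 in HF-DR. Each was lower in HF-DR with overlapping ranges. The differences were -0.29 ± 0.08 for Col4a4, -0.60 ± 0.09 for Col4a5 and -0.75 ± 0.10 for Col4a6 (limma adjusted p 0.00136, 4.21e-07 and 3.69e-08). Without the 6 arrays that stood apart the Col4a4 difference was -0.19 (limma adjusted p 0.000795). On the scanner software's processed signals the Col4a5 difference was -1.14.

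Types XV and XVIII, proteoglycan collagens of the basement membrane zone, were both more than 2-fold lower in HF-DR on the probes used. Another passing probe gave -0.78 for Col15a1 and -1.48 for Col18a1. Col18a1, whose C-terminal fragment is endostatin, read -0.34, 0.03 and 0.39 at t0, -0.26, 0.01 and 0.26 in HF-AL and -2.36, -1.80 and -1.32 in HF-DR. Col15a1 read -0.06, 0.19 and 0.47 at t0, -0.42, 0.01 and 0.38 in HF-AL and -1.81, -1.36 and -0.85 in HF-DR. In both, every HF-DR animal lay below every HF-AL animal. The difference was -1.85 ± 0.10 for Col18a1, or 3.6-fold lower (limma adjusted p 1.81e-18), and -1.35 ± 0.11 for Col15a1, or 2.55-fold lower (limma adjusted p 2.5e-13). The 5 type IV chains differed by -0.29 to -0.75 on the probes used. A difference between these subclasses was not tested.

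Type VI collagen forms beaded filaments around adipocytes. Col6a1 read -0.45, -0.03 and 0.39 at t0, -0.42, -0.17 and 0.23 in HF-AL and -1.71, -1.34 and -1.03 in HF-DR. Col6a2 read 0.01, 0.40 and 0.73 at t0, -0.17, 0.17 and 0.65 in HF-AL and -2.00, -1.27 and -0.68 in HF-DR. Col6a3, whose cleaved C-terminal fragment is known as endotrophin, read -0.16, 0.16 and 0.49 at t0, -0.20, -0.06 and 0.23 in HF-AL and -1.56, -1.32 and -0.82 in HF-DR. HF-DR lay below HF-AL without overlap for each chain. The differences were -1.22 ± 0.09 for Col6a1, -1.46 ± 0.11 for Col6a2 and -1.22 ± 0.09 for Col6a3 (limma adjusted p 4.15e-14, 1.22e-13 and 1.05e-14).

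Fibril-associated chains decorate the surface of fibrils, and they went both ways. Col14a1 and Col16a1 were lower in HF-DR, by -1.25 and -1.20 on the log2 scale, with ranges apart from HF-AL. Col12a1 read -0.26, 0.08 and 0.44 at t0, -0.34, -0.06 and 0.33 in HF-AL and -0.04, 0.19 and 0.77 in HF-DR. Col20a1 read -0.08, 0.04 and 0.27 at t0, -0.22, -0.09 and 0.35 in HF-AL and 0.06, 0.21 and 0.41 in HF-DR. Col9a2 read -0.18, 0.02 and 0.15 at t0, -0.18, -0.08 and 0.10 in HF-AL and -0.09, 0.09 and 0.23 in HF-DR. These 3 chains were higher in HF-DR than HF-AL with overlapping ranges. Their probes were dim, with mean log2 intensities of 7.32 for Col12a1, 6.85 for Col20a1 and 6.92 for Col9a2. The chains that did not pass the filter had 6.30 to 6.63, and Col14a1 had 10.9. They were above background on 11, 10 and 10 HF-DR arrays. The median of the 5 fibril-associated chains that passed the filter was 0.11. The differences were 0.31 ± 0.09 for Col12a1, 0.25 ± 0.05 for Col20a1 and 0.11 ± 0.04 for Col9a2 (limma adjusted p 0.00311, 0.000118 and 0.0162). With the slide as a block the calls of Col12a1 (0.23, limma adjusted p 0.132) and Col9a2 (0.13, limma adjusted p 0.107) were lost, and so was that of Col9a2 on the scanner software's processed signals (limma adjusted p 0.233).

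Type VII collagen, a homotrimer of Col7a1, forms the anchoring fibrils under stratified epithelia. Col7a1 was the only member at least 2-fold higher in HF-DR, and 2.97% of all genes were. It read -0.54, -0.35 and -0.10 at t0, -0.61, -0.43 and 0.56 in HF-AL and -0.14, 0.46 and 3.07 in HF-DR. The values of 3.07 and 2.75 came from HF-DR 8 and 9, and the other HF-DR animals lay between -0.14 and 0.78. The difference from HF-AL was 1.06 ± 0.25 (limma adjusted p 0.0003), and without the 6 arrays that stood apart it was 0.75 (limma adjusted p 1.17e-10). With the slide as a block it was 0.55 (limma adjusted p 0.00748).

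Unlike that of Col7a1, the calls of Col17a1, Col8a2 and Col13a1 between HF-DR and HF-AL changed without the 6 arrays. Col17a1, a protein of hemidesmosomes, was high on HF-DR 8 and 9 (1.24 and 1.08) and at 0.21 or less on the other 34 arrays. Its difference was 0.03 ± 0.13 over all arrays (limma adjusted p 0.845) and -0.26 without the 6 arrays (limma adjusted p 0.000216). Col8a2, a short-chain network collagen, was highest on HF-AL 5, 7 and 9, at 1.28, 1.87 and 2.08. Its call as lower (-0.60 ± 0.26, limma adjusted p 0.0394) was lost without the 6 arrays (-0.18, limma adjusted p 0.208), with the slide as a block (-0.76, limma adjusted p 0.141), without the signal filter (limma adjusted p 0.0606) and without HF-DR 5 (limma adjusted p 0.0527). Col13a1, a transmembrane collagen, was highest on HF-AL 7 and 9 (2.06 and 1.68). It did not pass over all arrays (0.25 ± 0.23, limma adjusted p 0.334) and was higher in HF-DR without the 6 arrays (0.62, limma adjusted p 6.01e-05). Col8a1 (-0.77 ± 0.13) and Col23a1 (-0.24 ± 0.07) were lower with overlapping ranges, with the 6 arrays and without them. The mean of the Col23a1 probes was not called (-0.16, limma adjusted p 0.114).

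**Figure D2:**
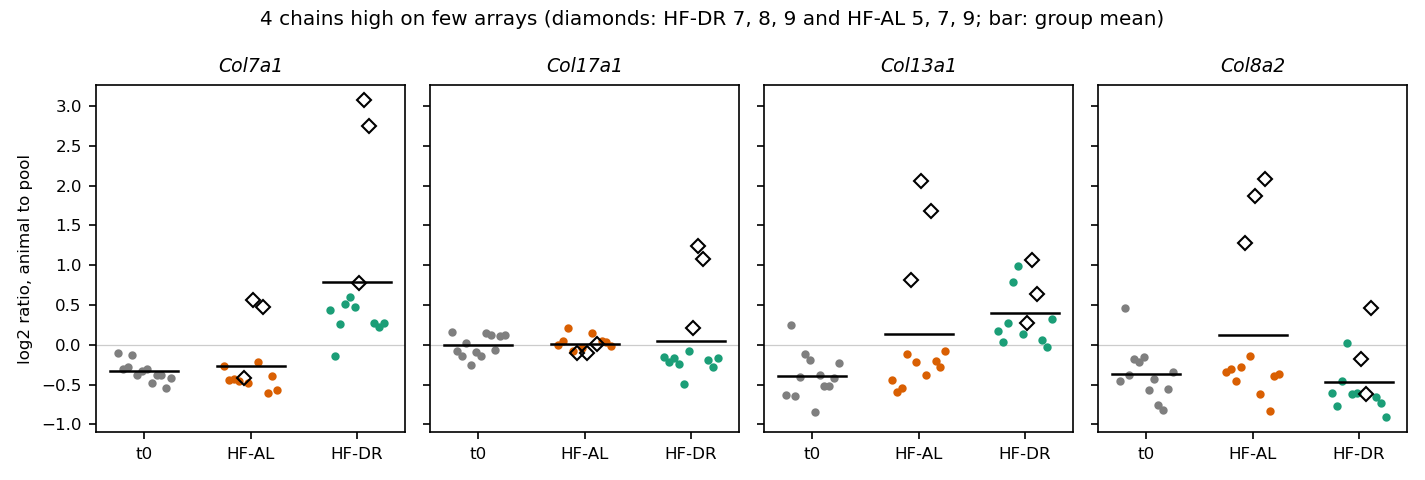
Log2 ratio of each animal to the pool (vertical axis) for Col7a1, Col17a1, Col13a1 and Col8a2 by group, with a bar at the group mean and open diamonds for HF-DR 7, 8 and 9 and HF-AL 5, 7 and 9. Col7a1 and Col17a1 were highest on 2 HF-DR arrays, and Col13a1 and Col8a2 were highest on HF-AL arrays among the diamonds.

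The size of a difference depended on the probe read. Of the 16 genes with several passing probes, 3 (Col2a1, Col4a6 and Col6a3) had probes of opposite sign between HF-DR and HF-AL. The probes above 0 gave 0.14 for Col2a1, 0.14 for Col4a6 and 0.008 for Col6a3. That Col6a3 probe was dim (mean log2 intensity 6.46) and above background on 3 HF-AL and 2 HF-DR arrays. The 3 Col1a1 probes gave -2.05, -1.14 and -0.29 from the brightest to the dimmest, and the Col3a1 probes gave -2.10, -0.58 and -0.15. For Col4a4 the dimmer probe gave the larger difference, -1.43 against -0.29.

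Free access for 12 more weeks was then compared with t0. Few collagen transcripts passed the test between these groups. Of the 30 chains, 2 were lower, against 0.230% of all genes, and 0 were higher, against 0.455% (limma). At an unadjusted p under 0.05, 10 were lower and 1 was higher, against 5.63% and 7.83% of all genes. The median difference was -0.08. The 2 called chains were Col5a2 (-0.34 ± 0.08, adjusted p 0.0389) and Col5a3 (-0.41 ± 0.10, adjusted p 0.0419), both with overlapping ranges, and both calls were lost with the slide as a block (limma adjusted p 0.159 and 0.111) and without the 6 arrays that stood apart (limma adjusted p 0.0777 and 0.0548). The 95% intervals were -0.47 to -0.04 for Col1a1, -0.24 to 0.26 for Col1a2 and -0.54 to -0.09 for Col3a1. Over the 9 slides with an array of both groups, the median difference ran from -0.30 to 0.09.

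Restricted feeding was also compared with t0, using the same HF-DR arrays as the first comparison. The fibre chains were lower than before restriction began: Col3a1 was 5.34-fold lower, Col1a1 4.96-fold lower and Col1a2 3.51-fold lower. Of the 30 chains, 21 were lower and 4 higher (limma), against 33.0% and 28.8% of all genes. At least 2-fold lower were 15 chains and 2.57% of all genes. Ranges were apart, with HF-DR below t0, for 15 chains and 9.13% of all genes. The median difference was -0.92. All 7 basement membrane chains and 8 of 9 fibrillar chains were lower, and the call of Col4a4 (-0.22, limma adjusted p 0.0138) was lost with the slide as a block (-0.24, limma adjusted p 0.0618). The higher chains were Col7a1 (1.13 ± 0.25), Col13a1 (0.78 ± 0.23), Col11a2 (0.18 ± 0.06) and Col20a1 (0.15 ± 0.05), with limma adjusted p of 0.00015, 0.00308, 0.00819 and 0.0192. The call of Col20a1 was lost with the slide as a block (limma adjusted p 0.10) and without the 6 arrays (limma adjusted p 0.0733). The probes of Col11a2 and Col20a1 were dim (mean log2 intensity 6.57 and 6.85). Col17a1, at 0.05 ± 0.13 over all arrays, was called lower without the 6 arrays (-0.21, limma adjusted p 0.000849) and with the slide as a block (-0.19, limma adjusted p 0.0215). Col23a1, at -0.10 over all arrays (limma adjusted p 0.211), was also called lower without the 6 arrays (-0.17, limma adjusted p 0.00526). Col7a1 was higher by 0.66 without them (limma adjusted p 4.31e-10). In that setting 23 chains were lower and 3 higher. Over the 6 slides with an array of both groups, the median difference ran from -1.40 to -0.65.

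**Figure D3:**
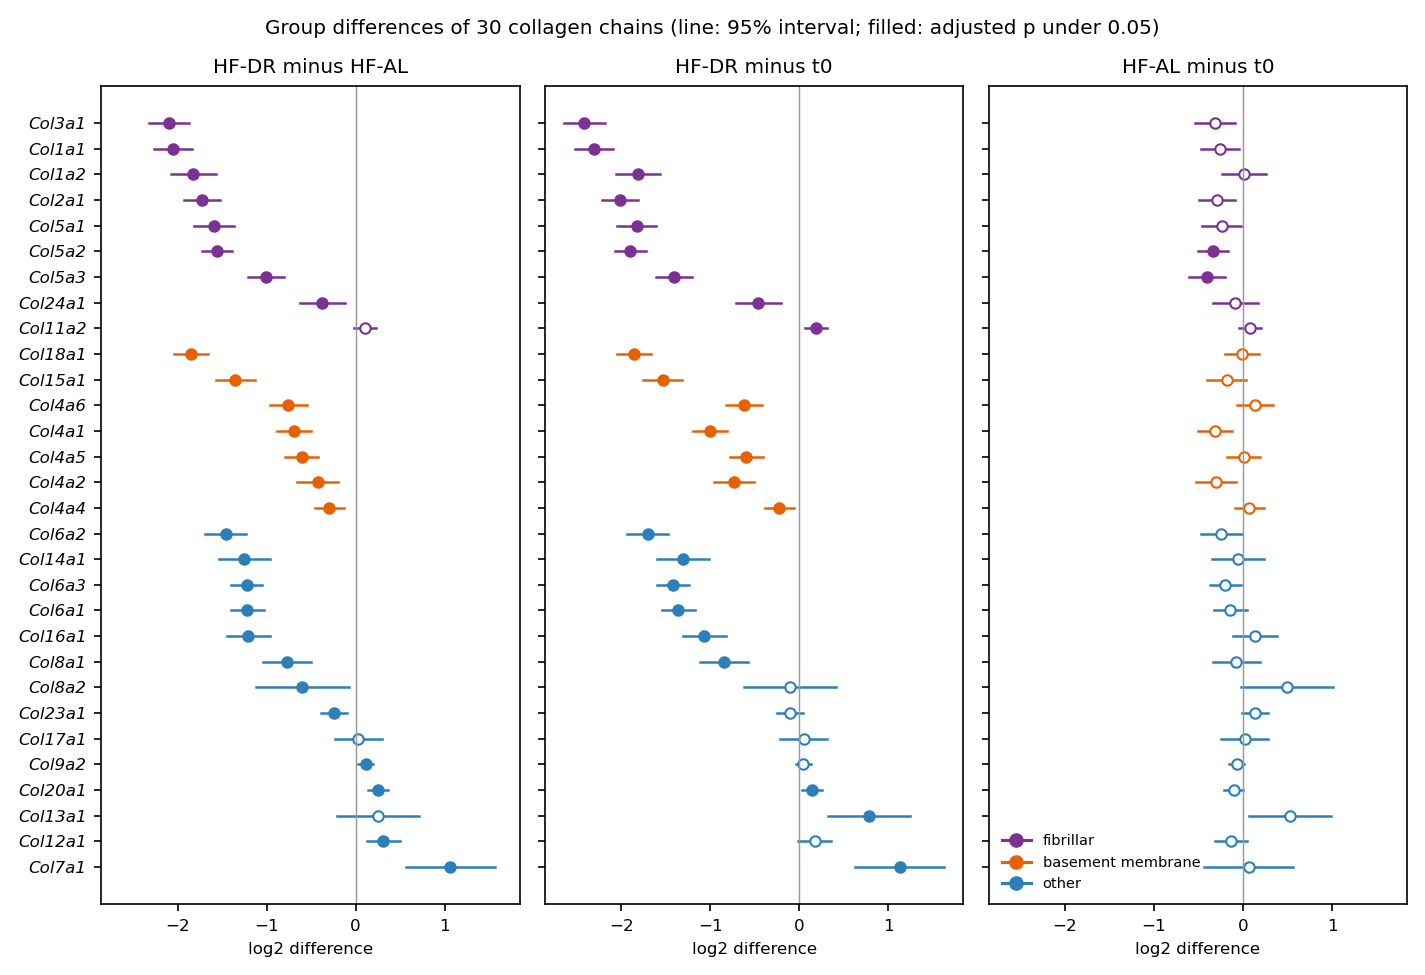
Log2 difference with its 95% interval (horizontal axis) for the 30 chains that passed the filter, in the comparisons HF-DR minus HF-AL, HF-DR minus t0 and HF-AL minus t0, coloured by class, with filled points for an adjusted p under 0.05. The first panels share the HF-DR arrays and show most fibrillar and basement membrane chains left of 0, while in HF-AL minus t0 only Col5a2 and Col5a3 are filled.

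Partner chains that assemble into the same trimer were compared within each animal. The log2 ratio of Col1a1 minus that of Col1a2 averaged -0.39 ± 0.20 (SD, n = 12) over the HF-DR animals, against -0.16 ± 0.24 (SD, n = 12) over those of HF-AL. The difference of -0.23 ± 0.09 (SE) gave p = 0.0167 in a two-sided permutation test with 100000 resamples and 0.0642 after Benjamini-Hochberg adjustment over the 4 pairs tested. For Col6a1 minus Col6a2 the difference was 0.24 ± 0.11 (permutation p = 0.0321, adjusted p 0.0642). For Col4a1 minus Col4a2 it was -0.24 ± 0.12 (permutation p = 0.0692, adjusted p 0.0922), and for Col5a1 minus Col5a2 -0.03 ± 0.10 (permutation p = 0.761, adjusted p 0.761). No pair passed the threshold in this setting. Without the 6 arrays that stood apart, the type I pair passed (-0.24, adjusted permutation p 0.00856), and the type V pair passed with a turned sign (0.15, adjusted permutation p 0.0439). On the scanner software's processed signals the type I pair (-0.26) and the type VI pair (0.37) passed, each at an adjusted permutation p of 0.0164. Each chain was read from 1 probe here. Between HF-DR and HF-AL, another passing Col6a2 probe gave -0.93, against -1.46 on the probe used and -1.22 for Col6a1. Other passing probes of Col4a1 and Col4a2 gave -0.26 and -0.27, against -0.69 and -0.43 on those used. Pairs were not tested on other probes.

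Within groups, the type I, type V and type VI partner chains of the t0 animals varied together. In the 12 t0 animals, Col1a1 and Col1a2 correlated at Pearson r = 0.935 (permutation p = 2e-05, the smallest that the resamples allow, and 0.00024 adjusted over 12 correlations) and Spearman rho = 0.916 (permutation p = 4e-05, adjusted 0.00048), with r = 0.885 without the 2 animals farthest from the Col1a1 median. For Col5a1 and Col5a2 at t0, r was 0.870 and rho 0.881 (permutation p = 0.00046 and 0.00024, adjusted 0.00276 and 0.00144), with r = 0.771 without the 2 farthest animals. For Col6a1 and Col6a2 at t0, r was 0.809 and rho 0.748 (permutation p = 0.00188 and 0.00676, adjusted 0.00752 and 0.0270), with r = 0.780 without the 2 farthest animals. In HF-DR the type I pair had r = 0.723 and rho = 0.476 (permutation p = 0.0151 and 0.125, adjusted 0.0454 and 0.151). That correlation rested on 2 animals, since r was 0.150 without them. For Col4a1 and Col4a2, which share promoter bases, r was 0.523 at t0, 0.413 in HF-AL and 0.529 in HF-DR (permutation p = 0.0799, 0.224 and 0.0930, adjusted 0.101, 0.224 and 0.101), and rho was 0.441, 0.718 and 0.413 (permutation p = 0.155, 0.0166 and 0.188, adjusted 0.169, 0.0499 and 0.188). Without the 2 farthest animals the Col4a1 and Col4a2 r values were 0.150, 0.548 and -0.493. The remaining 5 correlations had r between 0.520 and 0.646 and adjusted permutation p above 0.05. Without the 2 farthest animals, r in HF-AL was 0.780 for type I, 0.828 for type V and 0.578 for type VI. In HF-DR it was 0.326 for type V and 0.109 for type VI. A difference in correlation between the groups was not tested. Chains of an animal share an array and its normalization.

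Collagen chains need a set of enzymes and carriers, and many of these were lower in HF-DR as well. Of 44 genes in 4 lists, 38 passed the filter, and 26 were lower and 3 higher in HF-DR than HF-AL (limma), with a median of -0.34, against 35.9% and 28.9% of all genes and a median of -0.04. Against t0, 28 were lower and 3 higher, against 33.0% and 28.8% of all genes. Between HF-AL and t0, 0 passed in either direction, and 7 were lower and 3 higher at an unadjusted p under 0.05 (limma), against 5.63% and 7.83% of all genes.

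The proteases and enhancers that cleave procollagen had 5 lower and 1 higher of 6, against 35.9% and 28.9% of all genes. Adamts2, which removes the N-propeptide, read -0.20, 0.17 and 0.63 at t0, -0.20, 0.03 and 0.39 in HF-AL and -2.51, -1.67 and -1.24 in HF-DR. Its HF-DR range was apart, with a difference of -1.74 ± 0.11 (limma adjusted p 2.63e-16). Bmp1, the C-proteinase, differed by -0.99 ± 0.07 and Pcolce2, an enhancer of that cleavage, by -1.32 ± 0.13 (limma adjusted p 1.38e-14 and 3.78e-11), both with ranges apart. Adamts14 was higher by 0.14 ± 0.05 (limma adjusted p 0.00568), a call lost with the slide as a block (0.07, limma adjusted p 0.447).

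All 4 crosslinking enzymes that passed the filter were lower, against 35.9% of all genes. Loxl2 read -0.11, 0.33 and 0.85 at t0, -0.30, 0.04 and 0.63 in HF-AL and -1.76, -1.25 and -0.95 in HF-DR, with ranges apart and a difference of -1.39 ± 0.11 (limma adjusted p 6.54e-14). Loxl1 differed by -0.81 ± 0.13 and Loxl3 by -0.35 ± 0.05 (limma adjusted p 6.66e-07 and 1.31e-07). These lysyl oxidases oxidise lysines from which crosslinks form.

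Among collagen receptors, 5 of 7 were lower, against 35.9% of all genes. Ddr2, a receptor tyrosine kinase for fibrillar collagen, read -0.33, -0.10 and 0.09 at t0, -0.28, -0.10 and 0.02 in HF-AL and -2.00, -1.34 and -0.94 in HF-DR, with ranges apart. It differed by -1.28 ± 0.08 (limma adjusted p 4.48e-16). The integrin chain Itga11 differed by -1.31 ± 0.18 and Ddr1, which also binds type IV collagen, by -0.88 ± 0.14 (limma adjusted p 9.22e-08 and 8.76e-07).

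Genes for hydroxylation, folding and export had smaller differences, with 12 lower and 2 higher of 21 and a median of -0.24, against 35.9% and 28.9% of all genes. P4ha2, a prolyl 4-hydroxylase subunit, differed by -0.76 ± 0.08 and the prolyl isomerase Fkbp10 by -0.54 ± 0.06 (limma adjusted p 4.26e-10 and 4.6e-10). The export receptor gene Mia2 was higher by 0.35 ± 0.12 (limma adjusted p 0.0105), a call lost with the slide as a block, where the difference was 0.44 (limma adjusted p 0.0589). Tmem38b, an endoplasmic reticulum cation channel needed for collagen modification, went the other way from most of its list. It read -0.30, 0.02 and 0.36 at t0, -0.37, -0.04 and 0.25 in HF-AL and 0.30, 1.08 and 1.32 in HF-DR. Every HF-DR animal lay above every HF-AL animal, and the difference was 1.08 ± 0.10, or 2.12-fold higher (limma adjusted p 7.49e-12). The collagen chaperone Serpinh1 differed by -0.01 ± 0.16 (95% interval -0.33 to 0.31). Within the 3 slides that held both groups its mean difference was 0.35 (0.21 to 0.49).

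**Figure D4:**
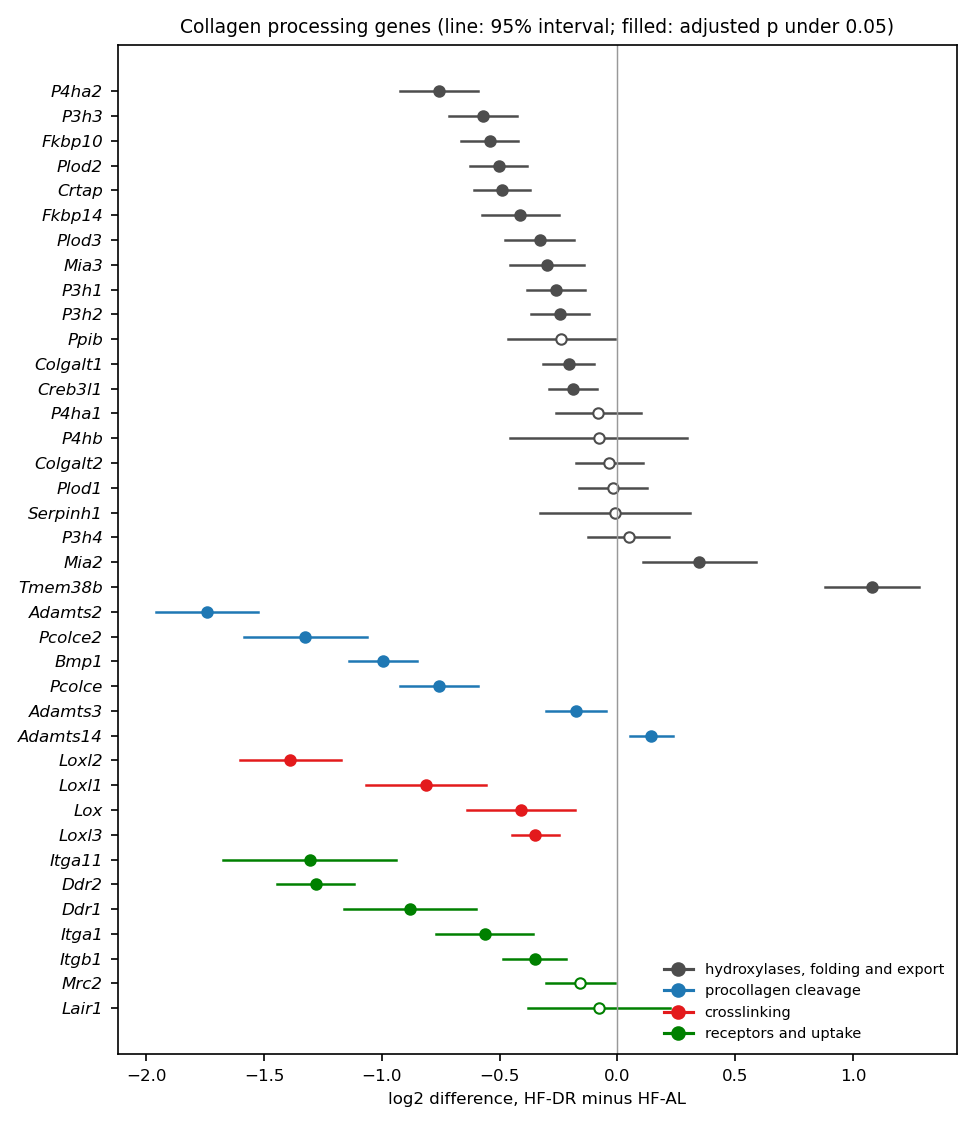
Log2 difference between HF-DR and HF-AL with its 95% interval (horizontal axis) for 38 genes of collagen processing, coloured by list, with filled points for an adjusted p under 0.05. Adamts2, Loxl2, Pcolce2, Itga11 and Ddr2 lie farthest to the left of 0 and Tmem38b farthest to the right.

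Markers of the cell types in the tissue also differed between HF-DR and HF-AL, a comparison in which 35.9% of all genes were lower and 28.9% higher. Of 12 fibroblast and progenitor markers, all above background on all 36 arrays, 10 were lower (median -0.69). Their mean log2 ratio per array ran from -0.02 to 0.24 in HF-AL and from -0.85 to -0.31 in HF-DR, without overlap. All 8 macrophage markers were lower (median -0.87), with array means from -0.13 to 0.37 in HF-AL and -1.42 to -0.42 in HF-DR. Of 10 endothelial markers 5 were lower and 1 higher (median -0.21), of 8 adipocyte markers 4 were lower (median -0.32), and of 8 mesothelial markers 4 were lower (median -0.22). Adipocyte array means were -1.11 and -0.95 on HF-DR 8 and 9 and -0.06 to 0.13 on the other HF-DR arrays, against -0.15 to 0.55 in HF-AL. Endothelial means were -1.06 and -0.93 on these arrays and -0.45 to -0.09 on the rest of HF-DR, against -0.27 to 0.18 in HF-AL. Mesothelial means were 0.24 and -0.11 there and -0.89 to 0.11 on the rest of HF-DR. Of 10 smooth muscle and pericyte markers 2 were lower and 3 higher (median 0.33). Their array means were 0.22, 0.86 and 0.93 on HF-DR 7, 8 and 9, which stood apart. The median array mean was -0.38 in HF-DR and -0.34 in HF-AL. Of 8 epididymis and seminal vesicle markers 5 passed the filter and 3 were higher, with array means up to 4.70 on HF-DR 8. Of 5 skeletal muscle markers 2 passed, and neither was called. Of 6 cartilage markers 3 passed and 1 was lower (limma for all counts). The part of these shifts in the collagen differences was not tested.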

How the data were processed

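The members, gene lists and the 6 arrays that stood apart were chosen with earlier results of these data known. The authors deposited 36 scans of 2-colour Agilent arrays, quantified by Agilent Feature Extraction (version 9.5.3.1, per the submitters' processing notes). Per the file headers, the intensity values used are mean spot signals and median local backgrounds on a linear scale, not normalised. Feature Extraction's processed intensity values and the deposited series matrix, whose log2 values track Cy5 (lowest r per array 0.989) with column medians of 9.26 to 9.29, served as alternatives. The sources used here do not state how the authors made the matrix. Per the labels, all animals carried Cy5 and the pool Cy3, so the dye effect of each probe is unknown. Coordinates of probes use mm8 per the file headers.

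Spots with a net signal under -50 (84 spots on 12 arrays) were left out. Background was corrected by normexp (limma 3.58.1, R 4.3.3, offset 50), ratios were normalised by loess within arrays (4 iterations), and flagged spots were left out. Spots of a probe were averaged. Missing values (0.307%) were left out of the fit. All 36 arrays entered 1 limma fit with group means, and p-values were two-sided and Benjamini-Hochberg adjusted over 16489 genes, called at under 0.05. The limma fit was tested on simulated data for HF-DR against HF-AL, and the other steps were not. Permutation tests of the pair differences used scipy 1.17.1, and those of the correlations were written in numpy 2.4.6. The number of arrays limits the precision.

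Members that passed the filter were described in full for types I, III, IV, V, VI, XV and XVIII, for the 8 largest differences between HF-DR and HF-AL, and where a call opposed the class median. Of each processing list, the 3 smallest adjusted p and any opposite call were named. The genes Svs4 and Krt18, Serpinh1, Col2a1's other probe and the remaining chains were named after their values were seen. Col14a1 and Col16a1 are given by their differences.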

Additional observations from a re-analysis of the deposited data

How the results depend on the processing

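Counts and medians kept their direction under the alternatives except as follows. Lower chains between HF-AL and t0 numbered 2, against 0 with normexp on all spots, the series matrix, no signal filter, the slide as a block or without the 6 arrays that stood apart, 1 with processed signals or the replicate block, and 4 with only the 2 groups fitted. The median between HF-DR and HF-AL was -0.93 with processed signals, -0.40 without the filter (40 chains) and -1.22 for the 22 chains above background on all 36 arrays, where 1 chain was higher. With the slide as a block 20 were lower and 2 higher. Against t0, the HF-DR median was -0.34 without the filter, -1.39 above background on all 36 arrays (1 higher) and -0.75 with the mean of passing probes. Within slides it was -1.40, -0.65, -0.72, -1.23 and -0.67, and for HF-AL against t0 0.0891, -0.28 and -0.30. The cause was not tested beyond the fewer or added genes of the filters. The Col1a1 minus Col1a2 difference was -0.26 with processed signals and -0.24 without the 6 arrays, Col5a1 minus Col5a2 was 0.18 and 0.15, and Col6a1 minus Col6a2 was 0.37 with processed signals. Col17a1 turned to -0.26 against HF-AL and -0.21 against t0 without the 6 arrays and to -0.19 against t0 with the slide as a block, and Adamts14 to -0.00957 averaged within slides. Replicate numbers were not taken to pair the animals in the main fit. In deviations from the group means, 9 of 12 same-numbered pairs of HF-DR and HF-AL correlated above 0.1 (median 0.206, against 0.0331 between other numbers). For HF-AL and t0 it was 2 of 12 pairs, and for HF-DR and t0 0 of 12. HF-DR and HF-AL arrays of the same number thus varied together more than others, and the reason was not tested. With the replicate block 23 chains were lower and 4 higher in HF-DR than HF-AL. The slide as a random block, added after seeing the data, gave 23 and 4 as well.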

Other observations

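Of the smooth muscle and pericyte markers, Cspg4 and Kcnj8 were higher in HF-DR than HF-AL by 1.25 and 0.61 on the log2 scale, while Rgs5 fell by 1.12 and Notch3 fell by 0.32 (limma adjusted p 2.49e-11, 1.25e-07, 8.69e-11 and 0.00655). On HF-DR 5, the array with the fewest probes above background, the cartilage proteoglycan gene Acan read 2.74 and the epididymal lipocalin gene Lcn9 read 2.32, against at most 0.20 and 0.23 on the other 35 arrays. Both were chosen after their values were seen.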
